A study of Mus musculus with 18 samples.

Results

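The 43 genes described here make up a core set of the lysosome: 8 cathepsins, 13 other hydrolases, 3 cofactors and lipid carriers, 4 membrane proteins, 3 transcription factors and 12 subunits of the proton pump. They were taken by gene symbol from a count table of 56748 genes. All 43 had a row, all 43 are annotated as protein-coding, and all 43 were among the 15450 genes that passed the filter on low counts. RNA was sequenced from mouse bone marrow-derived macrophages (BMDMs), which were grown from bone marrow in medium conditioned by L929 cells, whose supernatant supplies M-CSF. The 6 groups of 3 libraries were TLR4-knockout cells with GM, with MDP and with water, and wild-type cells with GM, with MDP and with water. GM is GlcNAc-MurNAc, the sugar pair that repeats along the glycan strands of bacterial peptidoglycan. MDP, or muramyl dipeptide, is MurNAc-D-Ala-L-Gln in the labels. The form that NOD2 senses has L-Ala and D-isoGln instead, so which isomer the cells received is not settled here. Both genotypes are given as C57BL/6J, treatment began on day 7 and lasted 24 h in IMDM without serum, and no dose is given. How TLR4 was deleted is not stated. The design asks which responses to GM and to MDP depend on TLR4. The 3 libraries of a group are called biological replicates with no word on separate mice or dishes. The p-values therefore reflect the scatter of these libraries, part of which may be technical.

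Lysosomes are acidic organelles in which macrophages break down phagocytosed bacteria, dead cells and their own worn-out parts. The vacuolar ATPase pumps protons into the lumen, and the acid activates cathepsins and the hydrolases of sugars and lipids, most of which are made as precursors. TFEB, TFE3 and MITF are related transcription factors that bind the sequence CACGTG and are known to raise many lysosomal genes when nutrients are short or lysosomes are stressed. TLR4 is the receptor for bacterial lipopolysaccharide.

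Libraries held 15532973 to 21128507 counts, of which the 43 genes took 7.656% to 9.647%. Levels are given as CPM, counts scaled to a fixed library size with edgeR's TMM factors. Tlr4 itself had 36.51 to 39.51 CPM in knockout GM, 48.2 to 49.25 in knockout MDP and 46.26 to 52.88 in knockout water libraries, against 179.3 to 192.2 in wild-type GM, 117.5 to 131.2 in wild-type MDP and 148.9 to 229.5 in wild-type water libraries. Every knockout library was below every wild-type library, with some Tlr4 reads left in all 9 knockout libraries. All 12 macrophage markers were expressed, and the sum of the 11 that are not among the 43 genes was 4000 to 4465 CPM in knockout and 3475 to 4668 CPM in wild-type libraries. Single markers differed in both directions beneath these sums. With water, Adgre1 averaged 1194 CPM in knockout and 720.8 in wild-type cells, and C1qa 12.37 and 67.42 CPM. The libraries of wild-type water and wild-type GM spread more than the others: the biological coefficient of variation was 6.13% in knockout GM, 6.49% in knockout MDP and 5.71% in knockout water libraries. It was 27.6% in wild-type GM, 8.11% with MDP and 35.5% with water in the same genotype. Replicate 3 of wild-type water stood apart. It was above both other libraries of its group for 28 of the 43 genes and below both for 11, against 43.7% and 45.3% of all genes tested. For 10 of the 12 pump subunits and all 4 membrane proteins it was the highest of its group, and relative to the mean of the other 2 its log2 difference was 0.97 for Gla and -1.11 for Ctsc. Replicate 3 of wild-type GM differed from the other 2 of its own group in the same direction for most of the 43 genes. Its log2 difference was 0.54 for Gla and -0.47 for Ctsc. Markers of fibroblasts and stroma summed to 538, 492.5 and 133.1 CPM in wild-type water replicates 1, 2 and 3, so the library that stands apart for the lysosomal genes also held the fewest stromal transcripts. The part of these transcripts in the results was not tested. Counts of calls that rest on this library are given with and without it for the 43 genes, for markers of cell types and for the further lists as a whole. Counts of genes whose groups do not overlap are given with it only.

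Per length of transcript, the 43 genes spanned from 18460 to 6.789 FPKM, the authors' unit of fragments per gene length and sequencing depth, as a mean over the 18 libraries. Lyz2, the lysozyme that cuts bacterial cell walls and a common macrophage marker, was highest at 15720 to 21670 FPKM in single libraries. Psap, the precursor of the saposins that present lipids to hydrolases, followed at 6253 FPKM. Among cathepsins, the cysteine protease Ctss at 3825 FPKM and the aspartic protease Ctsd at 3749 FPKM could not be ordered, since their ranges over libraries overlapped widely (2944 to 4682 and 3026 to 5635 FPKM). Ctsb averaged 1616, Ctsz 1366, Ctsl 245.7, Ctsa 222, Ctsh 109.3 and Ctsc 79.06 FPKM. Ctsl ran from 97.68 to 555.9 FPKM over the libraries.

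Among other hydrolases, Hexa, a subunit of beta-hexosaminidase, averaged 484.2 FPKM and Lgmn, the asparaginyl endopeptidase legumain that also processes cathepsin precursors, 254.9 FPKM. Beta-glucuronidase (Gusb) averaged 130.1 FPKM, acid ceramidase (Asah1) 102.7, alpha-galactosidase A (Gla) 89.33, alpha-mannosidase (Man2b1) 78.03 and tripeptidyl peptidase (Tpp1) 76.79. Beta-galactosidase (Glb1) averaged 52.76 FPKM, the sialidase Neu1 46.43, acid alpha-glucosidase (Gaa) 32.31, palmitoyl-protein thioesterase (Ppt1) 31.77 and acid sphingomyelinase (Smpd1) 10.99. Reads of Ppt1 and Cap1, which lie on opposite strands and overlap, cannot be told apart if strand was ignored, and Cap1 held 560% of the counts of Ppt1. Tmppe, on the strand of Glb1 and overlapping it, held 13.4% of its counts.

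Of the carriers, progranulin (Grn) averaged 393.2 FPKM and the soluble cholesterol carrier Npc2 246.1 FPKM. The membrane glycoproteins Lamp1 and Lamp2 averaged 862 and 107 FPKM, the cholesterol exporter Npc1 33.54 and the calcium channel Mcoln1 7.659. Pump subunits lay closer together, from 178.4 FPKM for the proton-carrying ring subunit Atp6v0c to 15.01 for Atp6v1h. Between these were Atp6ap1 at 177.6, Atp6v0b at 145.1, Atp6v1b2 at 142.6, Atp6v0d1 at 137.2, Atp6ap2 at 128, Atp6v1a at 119.6, Atp6v1e1 at 79.41, Atp6v0a1 at 51.79, Atp6v1c1 at 48.5 and Atp6v1d at 40.2 FPKM. From Atp6v0c down to Atp6v1a, the ranges of neighbours in this order overlapped. The transcription factors were among the lowest of all, with Mitf at 11.57, Tfe3 at 10.59 and Tfeb at 6.789 FPKM.

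**Figure D1:**
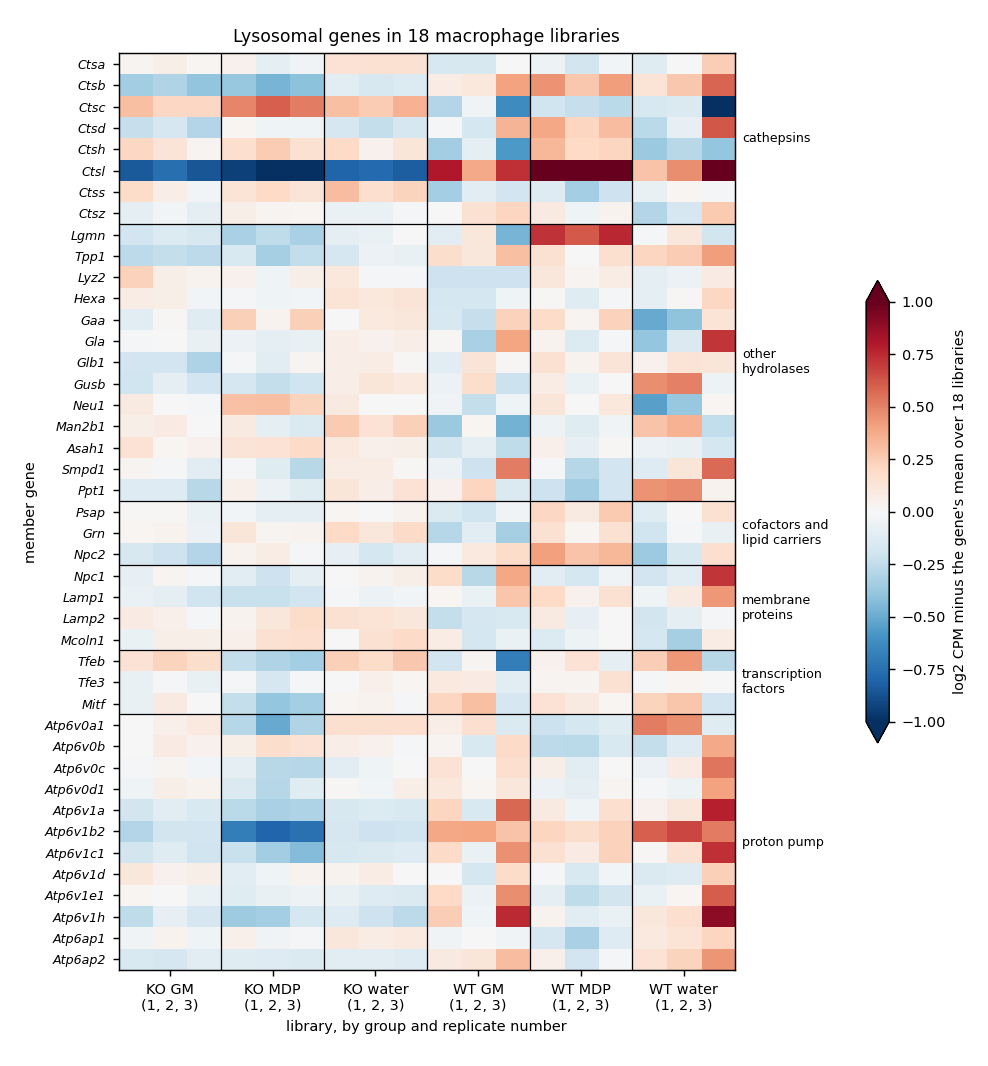
Log2 CPM of each of the 43 genes (rows, by class) in each of the 18 libraries (columns, by group), as the difference from the gene's mean over all libraries. Ctsl and Atp6v1b2 are lower in the knockout libraries, Lgmn is highest in wild-type MDP (883.5 to 976.2 CPM), and wild-type water replicate 3 differs from the other 2 libraries of its group across many rows.

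The letters CACGTG are shown because TFEB, TFE3 and MITF, whose transcripts were measured, are known to bind them. Binding at these genes was not measured. RefSeq promoters (GRCm38.p6, 250 bases before to 50 after a start) matched 36 of the 43 genes by symbol. CACGTG, which reads the same on both strands, was in a promoter of 12 of these 36 (33.3%), against 8.09% of 27025 genes, taken whether or not expressed here. Its longer form TCACGTGA, which contains it, was in 6 (16.7%) against 1.12% of all genes. The 12 were Ctsa, Ctsd, Ctsl, Lgmn, Gaa, Gla, Glb1, Lamp1, Mcoln1, Atp6v0b, Atp6v0d1 and Atp6v1a. Atp6v0a1, among the genes that moved most, is not among the 12, which says only that these letters were not found in its matched windows. Atp6v1b2 and Ctsh are among the 7 genes with no matched promoter. Shown in GRCm38.p6 coordinates and 5′ to 3′ on the gene's strand, with CACGTG in capitals, are windows for a membrane protein, a cathepsin and a pair of pump subunits with several or flanked copies, and for the proteases Lgmn and Ctsl, whose levels turn on genotype and MDP.
Lamp1, chr8:13159086-13159165, plus strand: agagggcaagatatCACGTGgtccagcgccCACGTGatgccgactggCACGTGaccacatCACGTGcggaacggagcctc
Ctsd, chr7:142387876-142387955, minus strand: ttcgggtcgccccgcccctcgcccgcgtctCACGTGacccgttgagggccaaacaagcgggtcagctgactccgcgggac
Atp6v0d1, chr8:105566045-105566097, minus strand: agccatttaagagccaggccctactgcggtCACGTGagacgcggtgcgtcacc
Atp6v1a, chr16:44139341-44139420, minus strand: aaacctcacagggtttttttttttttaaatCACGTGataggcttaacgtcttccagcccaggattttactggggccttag
Lgmn, chr12:102439092-102439171, minus strand: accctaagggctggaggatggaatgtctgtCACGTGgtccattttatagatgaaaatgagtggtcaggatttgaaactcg
Ctsl, chr13:64370691-64370770, minus strand: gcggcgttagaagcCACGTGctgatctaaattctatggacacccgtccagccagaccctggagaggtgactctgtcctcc
A match is a run of letters and not a measured binding site.

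In knockout macrophages, MDP went with lower transcripts of 6 of 12 pump subunits, of 7 of 13 other hydrolases and of the transcription factors Tfeb and Mitf. Among the other hydrolases 1 was higher, and the cathepsins and carriers shifted little, in both directions. A gene was called where the adjusted p of edgeR's quasi-likelihood test, corrected by Benjamini-Hochberg over all 15450 genes, was below 0.05. Of the 43 genes, 24 were called (55.8%), 4 higher and 20 lower, where 19.2% of all genes tested were called (9.16% higher and 10% lower). A single fit of all 18 libraries, in which the groups share 1 estimate of the spread, left 2 of the 24, Atp6v1b2 and Atp6v0a1. Highly expressed genes are called more often, so the share among the 4903 genes with a mean CPM at or above that of the lowest of the 43 (Smpd1, 36.95 CPM) is also given: 32.4%, with 14.6% higher and 17.8% lower. In all, 6 genes had every MDP library above every water library and 22 had every one below, where 32.8% of all genes tested lay apart in either direction (15.5% above and 17.3% below). Bulk RNA cannot tell fewer cells of a type from less RNA per cell.

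The largest fall was in Atp6v1b2 (GRCm39 chr8:69541298-69566363), the nucleotide-binding B subunit of the catalytic V1 sector. It had 450.7, 421.1 and 433.3 CPM in knockout MDP libraries, against 648.9, 629.5 and 634.8 CPM in knockout water libraries. No MDP library came near any water library, and the level was 1.47-fold lower (log2 fold change -0.55, SE 0.04, edgeR adjusted p 1.06e-12). Atp6v0a1 (chr11:100900278-100954545), the large membrane subunit that forms part of the proton path, had 276.2, 237.5 and 272.9 CPM with MDP, against 377.1, 376.4 and 378.5 CPM with water. These groups were also far apart (log2 fold change -0.53, SE 0.05, edgeR adjusted p 7.523e-11).

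Of the 12 pump subunits, 6 were lower, none higher and 6 not called, with a median log2 fold change of -0.12, against -0.005 for all genes tested. The other 4 that fell were much less affected: Atp6v0d1 by 0.20, Atp6v1c1 by 0.19, Atp6v0c by 0.17 and Atp6v1a, the catalytic subunit, by 0.15 on the log2 scale. For Atp6v0c the groups overlapped, since 1 MDP library at 564.9 CPM was above the lowest water library at 560.4 CPM. Summed over the 12 subunits, the pump took 4096, 3911 and 4001 CPM with MDP, against 4547, 4530 and 4537 CPM with water. The sums do not overlap.

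Tfeb (chr17:48047955-48103344) had 32.19, 30.95 and 30.1 CPM in knockout MDP libraries, against 44.96, 43.28 and 45.77 CPM in knockout water libraries. Its log2 fold change was -0.52 (SE 0.07, edgeR adjusted p 2.264e-07), with no overlap. Mitf, a factor also known from osteoclasts and pigment cells, had 60.75, 54.86 and 56.43 CPM with MDP, against 72.7, 73.42 and 70.98 CPM with water (log2 fold change -0.34, SE 0.06, edgeR adjusted p 2.623e-05). Tfe3, at 87.59 to 97.47 CPM with MDP and 98.9 to 102.1 CPM with water, was not called, although the groups did not overlap. Of 12 genes with CACGTG in a matched promoter, 1 was higher and 7 lower with a median log2 fold change of -0.14. Of 24 genes whose matched promoters lacked it, 3 were higher and 9 lower with a median of -0.09. Of the 7 with no matched promoter none was higher and 4 were lower, with a median of -0.17.

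**Figure D2:**
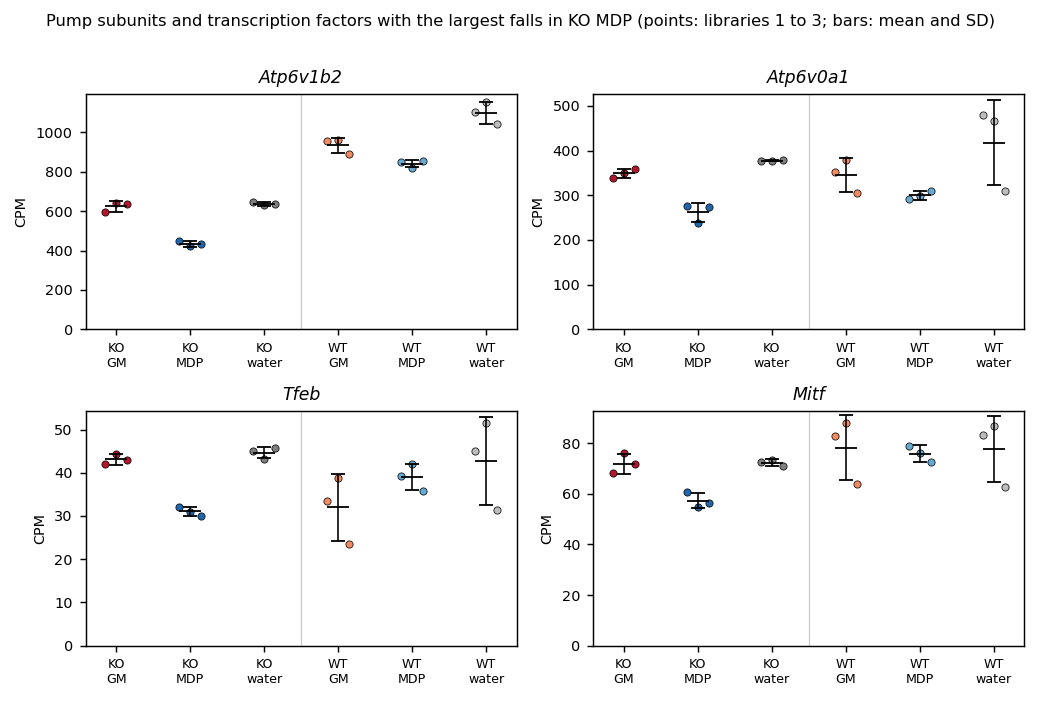
CPM of the pump subunits Atp6v1b2 and Atp6v0a1 and of the transcription factors Tfeb and Mitf in each library (points), by group, with the mean and SD of 3 libraries. In knockout cells the MDP libraries lie below all GM and water libraries for each of the 4 genes, for example 421.1 to 450.7 CPM of Atp6v1b2.

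The proteases divided. Ctsc, the dipeptidyl peptidase that activates serine proteases of granules, had 621, 669.8 and 632.6 CPM in knockout MDP libraries, against 546.6, 527.3 and 561.8 CPM in knockout water libraries (log2 fold change 0.23, SE 0.05, edgeR adjusted p 0.0001183). Ctsd had 8834, 8486 and 8471 CPM with MDP, against 7764, 7397 and 7790 CPM with water (log2 fold change 0.17, SE 0.04, edgeR adjusted p 0.003285). For both, every MDP library was above every water library. Ctsb fell by 0.28, Ctsl by 0.20 and Ctsa, the protective protein of Neu1 and Glb1, by 0.18 on the log2 scale, while Ctsh, Ctss and Ctsz were not called. With 2 of 8 cathepsins higher and 3 lower, the median log2 fold change of the class was -0.004, and its summed level was 26920, 26280 and 26210 CPM with MDP, against 27930, 26640 and 27540 CPM with water.

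Other hydrolases mostly fell: 7 of 13 were lower and 1 higher, with a median log2 fold change of -0.14. The exception was Neu1, at 212.3, 212.5 and 201.8 CPM in knockout MDP libraries, against 183.7, 173.3 and 173.6 CPM in knockout water libraries. Every MDP library was above every water library (log2 fold change 0.24, SE 0.05, edgeR adjusted p 0.0001563). The falls were Gusb by 0.30, Man2b1 by 0.26, Lgmn by 0.25, Hexa by 0.15, Ppt1 by 0.15, Tpp1 by 0.14 and Gla by 0.14 on the log2 scale. Gla, Ppt1 and Tpp1 were near the threshold, with edgeR adjusted p of 0.0283, 0.03448 and 0.03316.

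Among carriers and membrane proteins, Npc2 rose and its membrane partner Npc1 fell. Npc2 had 1369, 1406 and 1317 CPM with MDP, against 1261, 1181 and 1235 CPM with water (log2 fold change 0.16, SE 0.04, edgeR adjusted p 0.009836). Npc1 fell by 0.17 and Lamp1 by 0.18 on the log2 scale, whereas Lamp2, Mcoln1, Psap and Grn were not called. The call of Npc2 was lost without replicate 2 of knockout water (adjusted p 0.08486) and without replicate 2 of knockout MDP (0.05564).

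Markers of macrophages and of other cell types shifted beside these genes. Of 12 macrophage markers 1 was higher and 6 lower with MDP in knockout cells (58.3%, against 19.2% of all genes tested). The 9 osteoclast markers, which include the lysosomal genes Acp5, Ctsk and Atp6v0d2, summed to 734.1 to 783.1 CPM in knockout MDP, against 945.3 to 963.4 CPM in knockout water libraries, with 2 of 7 tested higher and 3 lower. Most of this sum was the pump subunit Atp6v0d2, at a mean of 388.9 CPM with MDP and 610.5 CPM with water. Acp5 went the other way, at 96.53 and 53.23 CPM. The 6 monocyte markers summed to 958.6 to 1143 CPM with MDP, against 716.9 to 747.8 CPM with water. Dendritic cell markers, nearly all of it Ccr7, summed to 316.4 to 418.1 CPM against 130.4 to 152.6 CPM, and Xcr1 was near 0 (0.0687 CPM with MDP and 0.0207 CPM with water). The part of these shifts in the lysosomal results was not tested.

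**Figure D3:**
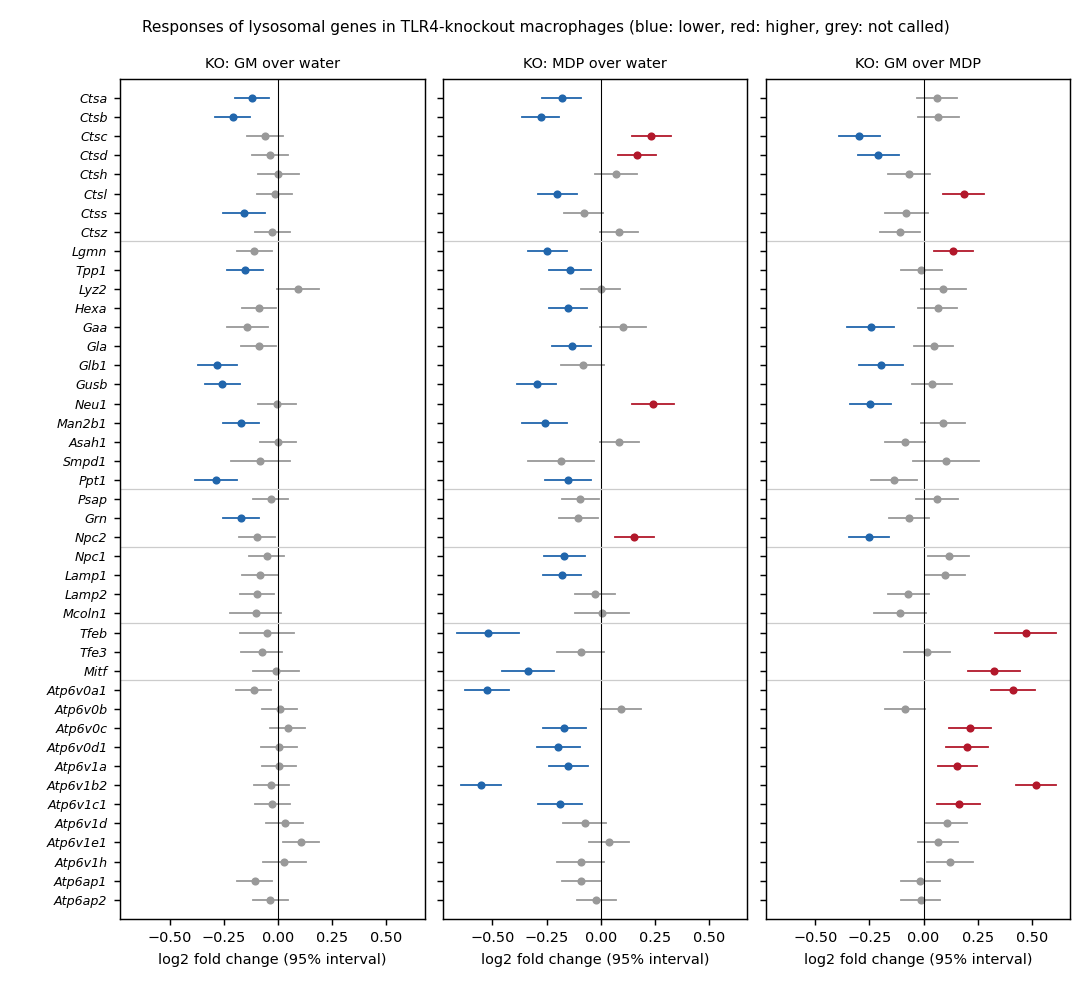
Log2 fold changes with 95% intervals of the 43 genes in knockout macrophages for GM and for MDP, each against water, and for GM against MDP, by class (blue lower, red higher, grey not called). Pump subunits lie on or near 0 with GM and reach -0.55 with MDP, while most hydrolases lie below 0 with either compound.

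GM in knockout macrophages went with lower transcripts of several hydrolases, and no pump subunit was called. Of the 43 genes, 9 were lower (20.9%) and none higher, where 7.84% of all genes tested were called (3.61% higher and 4.23% lower) and 14.8% of those at the members' expression (7.26% lower). The fit of all 18 libraries called none of the 9. Every GM library was above every water library for 1 gene and below for 16, where 23.4% of all genes tested lay apart in either direction (11% above and 12.4% below). The 9 were 3 cathepsins, 5 other hydrolases and Grn, and every fall was small. Ppt1 had 106.1, 106.2 and 96.08 CPM in knockout GM libraries, against 126.5, 121.3 and 128.4 CPM in knockout water libraries (log2 fold change -0.29, SE 0.05, edgeR adjusted p 5.153e-05). Glb1, which removes galactose from glycolipids and glycoproteins, had 139.4, 139.7 and 128.7 CPM with GM, against 166.7, 167.9 and 160.4 CPM with water (log2 fold change -0.28, SE 0.04, edgeR adjusted p 2.681e-05). Both were below water in every library, with the reservation on overlapping genes given above. Gusb had 512.8, 550.9 and 515.9 CPM with GM, against 617, 640.3 and 630.6 CPM with water (log2 fold change -0.26, SE 0.04, edgeR adjusted p 2.099e-05).

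Ctsb, an abundant cysteine protease, had 7541, 7776 and 7305 CPM in knockout GM libraries, against 8854, 8575 and 8726 CPM in knockout water libraries (log2 fold change -0.21, SE 0.04, edgeR adjusted p 0.0003536). None of these GM libraries reached a water library. The others that fell were Man2b1 by 0.17, Grn by 0.17, Ctss by 0.16, Tpp1 by 0.15 and Ctsa by 0.12 on the log2 scale, and for Ctss the groups overlapped. All 12 pump subunits, all 4 membrane proteins and all 3 transcription factors were not called. The median log2 fold change of the pump was 0.005, and its sum was 4409, 4589 and 4490 CPM with GM, against 4547, 4530 and 4537 CPM with water. For Atp6v1b2 the log2 fold change with GM was -0.03 (95% interval -0.11 to 0.05). With edgeR, 3 of the 12 pump subunits had an unadjusted p below 0.05, and DESeq2 also called none. Without replicate 3 of knockout water or replicate 3 of knockout GM, 5 of the 9 calls were left, among them the 4 genes given in full.

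GM and MDP were set against each other directly in knockout cells as 1 pair of compounds that share MurNAc per their labelled names. GM carries GlcNAc and no peptide, and MDP a dipeptide and no GlcNAc. Since no dose is given, whether the doses match is not known. Of the 43 genes, 10 were higher with GM and 6 lower (37.2%), where 16.4% of all genes tested were called (8.08% higher and 8.31% lower) and 28.9% of those at the members' expression. The fit of all 18 libraries left 1 of the 16, Atp6v1b2. Every GM library was above every MDP library for 12 genes and below for 8, where 31.5% of all genes tested lay apart in either direction (16.3% above and 15.2% below). All 6 called pump subunits and both called transcription factors were higher with GM. Atp6v1b2 had 594.4, 640 and 637.5 CPM with GM, against the 421.1 to 450.7 CPM with MDP given above (log2 fold change 0.52, SE 0.05, edgeR adjusted p 1.79e-12). Tfeb had 42.01, 44.35 and 42.91 CPM with GM, above each MDP library (log2 fold change 0.47, SE 0.07, edgeR adjusted p 1.163e-06).

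Atp6v0a1 had 338.4, 349.3 and 359.4 CPM with GM in knockout cells, again above each MDP library (log2 fold change 0.41, SE 0.05, edgeR adjusted p 2.593e-08). Mitf had 68.08, 76.02 and 71.63 CPM with GM (log2 fold change against MDP 0.33, SE 0.06, edgeR adjusted p 4.327e-05). Atp6v0c, Atp6v0d1, Atp6v1c1 and Atp6v1a were higher with GM by 0.21, 0.20, 0.16 and 0.16 on the log2 scale, and Ctsl and Lgmn by 0.19 and 0.14. The pump sum was 4409 to 4589 CPM with GM and 3911 to 4096 CPM with MDP, without overlap.

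In the other direction, Ctsc had 546.2, 510.6 and 510.1 CPM in knockout GM libraries, against 621, 669.8 and 632.6 CPM in knockout MDP libraries (log2 fold change -0.30, SE 0.05, edgeR adjusted p 2.617e-06). Npc2 had 1196, 1154 and 1088 CPM with GM, against 1369, 1406 and 1317 CPM with MDP (log2 fold change -0.25, SE 0.05, edgeR adjusted p 5.173e-05). Neu1 had 184.1, 173 and 171.7 CPM with GM, against 212.3, 212.5 and 201.8 CPM with MDP (log2 fold change -0.25, SE 0.05, edgeR adjusted p 0.000106). In each of these genes every GM library was below every MDP library. The same was true of Gaa, which frees glucose from glycogen, at 142.7, 155 and 141.9 CPM with GM, against 181.8, 157.4 and 181.5 CPM with MDP (log2 fold change -0.24, SE 0.05, edgeR adjusted p 0.0007797). Ctsd and Glb1 were lower with GM by 0.21 and 0.20 on the log2 scale.

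In wild-type macrophages MDP went with higher levels of 2 proteases, Lgmn and Ctsh. These were the calls among the 43 genes (4.65%), where 8.34% of all genes tested were called (4.61% higher and 3.72% lower) and 10.1% of those at the members' expression. Lgmn (chr12:102360343-102406072) had 953.6, 883.5 and 976.2 CPM in wild-type MDP libraries, against 572.5, 624.9 and 508 CPM in wild-type water libraries (log2 fold change 0.72, SE 0.11, edgeR adjusted p 0.01443). Ctsh (chr9:89936205-89958142), a cysteine protease that trims peptides from the amino end, had 613, 560.5 and 566.6 CPM with MDP, against 377.5, 402.8 and 372.5 CPM with water (log2 fold change 0.59, SE 0.09, edgeR adjusted p 0.01444). For both genes all MDP libraries were well above all water libraries. Either call was lost on leaving out replicate 1 of wild-type water or any 1 of the 3 MDP libraries, with adjusted p of 0.05454 to 0.09524, and that of Ctsh also without replicate 2 of wild-type water (0.05197). Without replicate 3 of wild-type water both were called, with log2 fold changes of 0.65 and 0.57.

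Ctsl (chr13:64507151-64518704), a cysteine protease active on many lysosomal substrates, had 3626, 3392 and 3343 CPM in wild-type MDP libraries, against 1590, 1808 and 2601 CPM in wild-type water libraries. The groups did not overlap, but the gene missed the threshold (log2 fold change 0.79, SE 0.19, edgeR adjusted p 0.05461). The highest water library was the replicate 3 that stands apart. Cathepsins summed to 36940, 32930 and 35430 CPM with MDP, against 27680, 30500 and 39700 CPM with water, so that their sums overlapped through that library alone.

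The pump ran the other way without an edgeR call, with 4 of 12 subunits at an unadjusted p below 0.05 and 2 called lower by DESeq2. All 12 subunits had a negative log2 fold change for MDP in wild-type cells, with a median of -0.30 against -0.04 for all genes tested, and 6 of the 12 had all MDP libraries below all water libraries. Of the 43 genes 6 lay above water and 9 below in this sense, where 37.2% of all genes tested did so in either direction (18.8% above and 18.4% below). Atp6v1b2 had 847.6, 822 and 853.8 CPM with MDP, against 1105, 1155 and 1042 CPM with water, and narrowly missed the threshold (log2 fold change -0.39, 95% interval -0.61 to -0.17, edgeR adjusted p 0.05223). Ppt1, at 100.8, 91.14 and 101.7 CPM with MDP and 158.4, 161.5 and 119.3 CPM with water, also missed it (log2 fold change -0.58, edgeR adjusted p 0.05234).

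Replicate 3 of wild-type water decided how many of the 43 genes passed. Without it, 22 were called for MDP in wild-type cells, 11 higher and 11 lower, while 35.5% of all genes tested were called. Of the cathepsins 4 were then higher and 1 lower, of the other hydrolases 4 higher and 3 lower, and of the pump subunits 6 lower and none higher. The median of the pump moved to -0.10 and that of the cathepsins to 0.21.

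Markers of other cell types also moved with MDP in wild-type cells. Of 13 stromal markers tested 9 were lower and none higher, with a median log2 fold change of -3.15, and their sum was 168 to 192.5 CPM with MDP, against 133.1 to 538 CPM with water. Fn1, which was not called, took a mean of 147.3 CPM of this sum with MDP and 124.2 CPM with water. Of 5 dendritic cell markers tested 2 were higher and 1 lower, with sums, most of them Ccr7, of 725 to 801.7 CPM with MDP, against 90.91 to 199.2 CPM with water. Among 9 neutrophil markers 2 were higher. The sums, nearly all of them Mmp8, overlapped, at 1846 to 1980 CPM with MDP and 1580 to 2391 CPM with water. Osteoclast markers gave 2 of 7 higher, with sums, most of them Atp6v0d2, of 1356 to 1493 CPM with MDP and 1334 to 1809 CPM with water. Without replicate 3 of wild-type water, 35.5% of all genes tested were called. Then 12 of 13 stromal markers were lower, 7 of 9 neutrophil markers higher, and 2 of 7 osteoclast markers higher and 4 lower. Of 5 dendritic cell markers 3 were then higher and 2 lower, of 6 monocyte markers 2 higher and 3 lower, and of 12 macrophage markers 3 higher and 2 lower. The stromal response also differed between the genotypes, with 4 of 13 markers lower and a median difference of -2.76, wild type minus knockout. Without the same library 11 of the 13 were lower. The part of these markers in the calls of Lgmn, Ctsh and Ctsl was not tested.

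**Figure D4:**
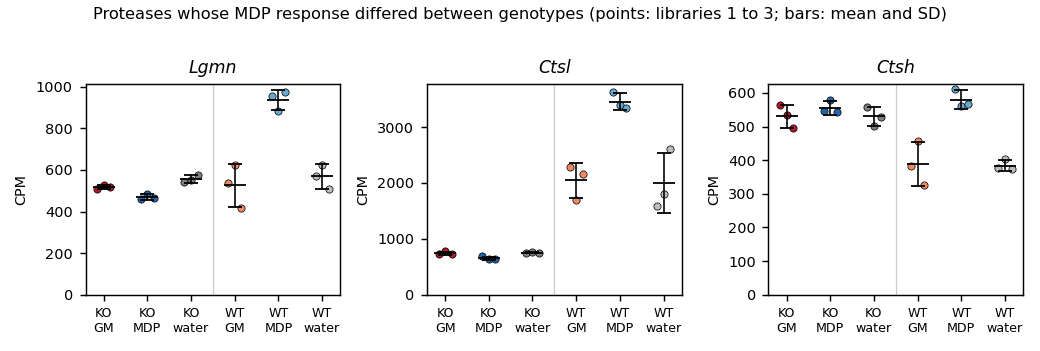
CPM of the proteases Lgmn, Ctsl and Ctsh in each library (points), by group, with the mean and SD of 3 libraries. In wild-type cells the MDP libraries lie above all GM and water libraries for each gene (Lgmn 883.5 to 976.2 CPM), and in knockout cells Ctsl lies between 635 and 776.9 CPM in all groups.

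The MDP response of these proteases differed between genotypes by a test of the difference itself, in a fit of the 12 knockout and wild-type libraries with MDP or water. Lgmn, Ctsl and Ctsh were called, each with a larger log2 fold change in wild-type than in knockout cells. They make up 6.98% of the 43 genes, where 7.97% of all genes tested were called (4.63% in this direction and 3.34% in the other) and 10.6% of those at the members' expression. In knockout cells, Lgmn had 462.4, 484.4 and 462.7 CPM with MDP, against 541.6, 553.4 and 576.9 CPM with water, a fall where wild-type cells showed a rise. The difference, wild type minus knockout, was 0.97 on the log2 scale (SE 0.12, edgeR adjusted p 0.0006744).

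Ctsl had 684.8, 639.1 and 635 CPM in knockout MDP libraries, against 749.3, 763.2 and 739.5 CPM in knockout water libraries, and the difference between genotypes was 0.99 (SE 0.20, edgeR adjusted p 0.01243). Ctsh had 547.2, 579.9 and 542.2 CPM in knockout MDP libraries, against 559, 502.9 and 528.7 CPM in knockout water libraries. Its groups overlapped in knockout cells and lay apart in wild-type cells, with a difference of 0.52 (SE 0.10, edgeR adjusted p 0.008437). Each of the 3 genes was called in the same direction under all 18 other settings tried.

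With edgeR no pump subunit or transcription factor was called for this difference, and 2 of the 12 subunits had an unadjusted p below 0.05. DESeq2 called 1 subunit, with a lower value in wild type. For Atp6v1b2 the log2 fold change with MDP was -0.55 in knockout and -0.39 in wild-type cells, a difference of 0.16 with a 95% interval of -0.03 to 0.36. For Tfeb the difference was 0.40 (95% interval -0.05 to 0.84), so a sizeable gap between genotypes was not excluded at this spread. Without replicate 3 of wild-type water, 19 of the 43 genes differed, 14 with a higher value in wild type and 5 with a lower one, while 26.2% of all genes tested did. These were 4 cathepsins higher and 1 lower, 4 other hydrolases higher and 2 lower, and 1 pump subunit higher and 2 lower.

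**Figure D5:**
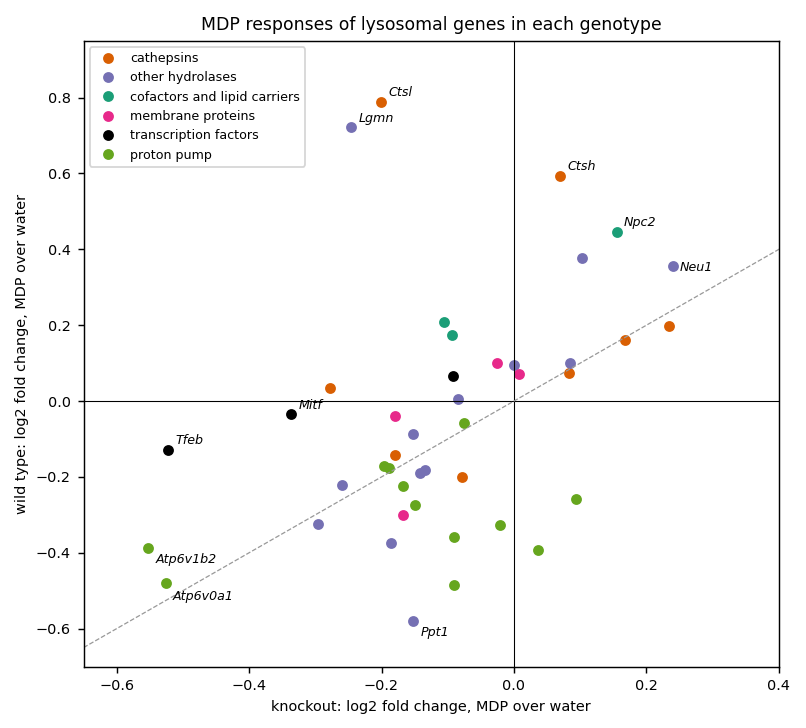
Log2 fold change of each of the 43 genes with MDP against water in knockout cells (horizontal) and in wild-type cells (vertical), by class, with a dashed line of equality. Lgmn, Ctsl and Ctsh lie above the line, with differences of 0.97, 0.99 and 0.52 from it, and the pump subunits lie below 0 on the vertical axis.

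GM in wild-type macrophages gave no call among the 43 genes, where 0.608% of all genes tested were called, all higher. None of the 43 had an unadjusted edgeR p below 0.05, against 975 of all genes tested. DESeq2 called none and had 1 gene with an unadjusted p below 0.05, while a single edgeR fit of all 18 libraries called 1 and had 10. Log2 fold changes were negative for 31 genes and positive for 12, with a median of -0.09 against -0.04 for all genes tested. Ctss, Lyz2, Atp6v1b2 and Atp6ap1 had all GM libraries below all water libraries and no gene had all above, where 12% of all genes tested lay apart in either direction (7.27% above and 4.73% below). Leaving out replicate 3 of wild-type water also gave no edgeR call among the 43. Then 9 of them had an unadjusted edgeR p below 0.05, against 2713 of all genes tested, so the absence of such values rests on that library. Ctss, at 4088, 4833 and 4534 CPM with GM and 4931, 5250 and 5127 CPM with water, had a log2 fold change of -0.19. All 13 stromal markers tested had a negative log2 fold change with GM, with a median of -1.16, and none was called. Without replicate 3 of wild-type water 4 were lower and none higher, while 1.86% of all genes tested were called. The part of these markers in the results for GM was not tested.

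The spread of these groups leaves wide intervals. In wild-type cells, 95% intervals for GM against water were -0.58 to 0.30 for Ctsb, -0.52 to 0.05 for Atp6v1b2 and -1.01 to 0.18 for Tfeb on the log2 scale. The interval of Tfeb includes the -0.52 found with MDP in knockout cells, and that of Atp6v1b2 ends just short of its -0.55. The median of the pump was -0.10 in wild-type cells and turned to 0.12 without replicate 3 of wild-type water, so its sign rests on that library.

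No gene of the 43 was called for a difference in GM response between genotypes, where 0.939% of all genes tested were called (0.926% with a higher value in wild type and 0.0129% with a lower one). By edgeR none had an unadjusted p below 0.05, and DESeq2 also called none. Without replicate 3 of wild-type water 9 had an unadjusted edgeR p below 0.05, against 3028 of all genes tested, and none was called. Wild type minus knockout, all 12 pump subunits had a negative difference, with a median of -0.10, which became 0.11 without replicate 3 of wild-type water. Leaving out replicate 3 of both wild-type water and wild-type GM, a choice made after seeing the data, gave 3 calls, all with a larger value in wild type, while 7.95% of all genes tested were called.

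GM and MDP in wild-type cells differed in the levels of Lgmn, Ctsl and Ctsh. No pump subunit was called by edgeR or DESeq2, and 2 of 12 had an unadjusted edgeR p below 0.05. All 3 of these genes were lower with GM (6.98% of the 43), where 9.99% of all genes tested were called (5.59% higher and 4.41% lower) and 11.1% of those at the members' expression. Lgmn had 537.5, 624.9 and 418 CPM in wild-type GM libraries, against 953.6, 883.5 and 976.2 CPM in wild-type MDP libraries (log2 fold change -0.83, SE 0.15, edgeR adjusted p 0.01906). Ctsl had 2279, 1695 and 2163 CPM with GM, against 3626, 3392 and 3343 CPM with MDP (log2 fold change -0.76, SE 0.14, edgeR adjusted p 0.01855). Ctsh had 383.4, 457.9 and 326.6 CPM with GM, against 613, 560.5 and 566.6 CPM with MDP (log2 fold change -0.57, SE 0.13, edgeR adjusted p 0.03833). For each gene every GM library lay below every MDP library. This held for 10 of the 43 genes, and 5 lay above, where 36.7% of all genes tested lay apart in either direction (20.1% above and 16.7% below).

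The 3 calls were lost without replicate 1 of wild-type GM or any 1 of the 3 wild-type MDP libraries. Without replicate 2 of wild-type GM the count was 10, while 29% of all genes tested were called, and without replicate 3 it was 7, while 14.4% were. Stromal markers were higher with GM for 7 of the 13 tested and lower for 1, and their part in these calls was not tested. The 12 pump subunits all had a positive log2 fold change for GM against MDP in wild-type cells, with a median of 0.17 against 0.02 for all genes tested. Atp6v1b2, with 954.3, 960.1 and 889.9 CPM with GM, was above every MDP library.

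Without any compound, knockout and wild-type macrophages differed most, among the 43 genes, in Ctsl and Atp6v1b2. With water, 1 gene was higher and 3 lower in knockout (9.3% of the 43), where 14.6% of all genes tested were called (6.32% higher and 8.3% lower) and 17.5% of those at the members' expression. Ctsl had 749.3, 763.2 and 739.5 CPM in knockout water libraries, against 1590, 1808 and 2601 CPM in wild-type water libraries, 2.66-fold lower (log2 fold change -1.41, SE 0.19, edgeR adjusted p 0.007713). Atp6v1b2 had 648.9, 629.5 and 634.8 CPM in knockout, against 1105, 1155 and 1042 CPM in wild type (log2 fold change -0.79, SE 0.09, edgeR adjusted p 0.00417). Both were lower in every library, and the difference in Atp6v1b2 was called under all 12 other settings tried.

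Tpp1, a peptidase lost in a childhood neuronal ceroid lipofuscinosis, had 350.9, 379.9 and 374 CPM in knockout water libraries, against 458.3, 471.9 and 526.1 CPM in wild-type water libraries (log2 fold change -0.40, SE 0.09, edgeR adjusted p 0.03761). Ctsh was the gene that rose, with 559, 502.9 and 528.7 CPM in knockout, against 377.5, 402.8 and 372.5 CPM in wild type (log2 fold change 0.46, SE 0.09, edgeR adjusted p 0.02018). Neither pair of groups overlapped. Leaving out any 1 of the 3 knockout water libraries left only the call of Atp6v1b2, and leaving out replicate 1 or replicate 2 of wild-type water left 2 calls.

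Of the pump subunits 10 of 12 had a negative log2 fold change in knockout water against wild-type water, with a median of -0.30 against -0.03 for all genes tested. That median was -0.16 without replicate 3 of wild-type water. For Atp6v1a, Atp6v1b2, Atp6v1c1, Atp6v1e1, Atp6v1h and Atp6ap2 every knockout library lay below every wild-type library. Of the 43 genes, 6 lay above and 9 below in this sense, where 44.4% of all genes tested lay apart in either direction (22% above and 22.3% below). The V1 genes among the 43 summed to 2155, 2138 and 2122 CPM in knockout, against 2742, 2884 and 3686 in wild type. The V0 genes among the 43 summed to 1498, 1512 and 1532 CPM in knockout, against 1556, 1617 and 1900 in wild type. The V0 sum leaves out Tcirg1, Atp6v0a2, Atp6v0e and Atp6v0d2. Atp6v0d2 had 617.6, 620.7 and 593.2 CPM in knockout, against 1078, 1127 and 1608 in wild type. Both sums were lower in every knockout library.

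Without replicate 3 of wild-type water, 29 of the 43 genes differed between the genotypes in water, 17 higher and 12 lower in knockout, while 46.8% of all genes tested did. Of the cathepsins 5 were then higher and 2 lower, of the other hydrolases 5 higher and 3 lower, and of the pump subunits 2 higher and 6 lower. The 4 genes called with that library were among the 29, with log2 fold changes of -1.18 for Ctsl, -0.82 for Atp6v1b2, -0.34 for Tpp1 and 0.44 for Ctsh. Stromal markers summed to 58.39 to 78.93 CPM in knockout water, against 133.1 to 538 CPM in wild-type water libraries, and monocyte markers to 716.9 to 747.8 CPM against 174.9 to 223.2 CPM. Neutrophil markers summed to 2409 to 2428 CPM in knockout water, against 1580 to 2391 CPM in wild-type water, with 3 of 9 higher and none lower. Nearly all of this sum was Mmp8, at a mean of 2256 CPM in knockout and 1847 CPM in wild type. Osteoclast markers summed to 945.3 to 963.4 CPM in knockout water, against 1334 to 1809 CPM in wild-type water, with 1 of 7 higher and 1 lower. Most of this sum was Atp6v0d2, at a mean of 610.5 CPM in knockout and 1271 CPM in wild type, while Ctsk had 182.5 and 33.13 CPM. Dendritic cell markers had 2 of 5 lower, and macrophage markers 2 of 12 higher and 2 lower. These marker counts are with replicate 3 of wild-type water. Without it 13 of 13 stromal markers were lower, 7 of 9 neutrophil markers higher, and 2 of 7 osteoclast markers higher and 5 lower. Of 6 monocyte markers 5 were then higher and 1 lower, of 5 dendritic cell markers 3 lower, and of 12 macrophage markers 4 higher and 7 lower. The part of these markers in the difference between genotypes was not tested.

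Set side by side in knockout cells, where the spread was small, the 3 main classes gave these counts, where 19.2% of all genes tested were called with MDP and 7.84% with GM (32.4% and 14.8% of those at the members' expression). The pump had 6 of 12 genes lower with MDP (50%) and none called with GM. The other hydrolases had 7 of 13 lower and 1 higher with MDP (61.5%), and 5 lower with GM (38.5%). The cathepsins had 3 of 8 lower and 2 higher with MDP (62.5%), and 3 lower with GM (37.5%). The GM and MDP comparisons share the same 3 water libraries, so that a deviation of these would move both. The log2 fold change of Gusb was -0.26 with GM and -0.30 with MDP, that of Ctsb -0.21 with GM and -0.28 with MDP, and that of Atp6v1b2 -0.03 with GM and -0.55 with MDP. In wild-type cells the calls among these classes were Lgmn and Ctsh with MDP, and none with GM.

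Lists of related genes, taken from knowledge of the pathway with earlier results of these data known, place the 43 genes in their surroundings. In knockout cells their shares are to be read against the same 19.2% and 32.4% with MDP and 7.84% and 14.8% with GM. Among all genes tested, 8.34% were called with MDP and 0.608% with GM in wild-type cells. For the difference in MDP response that share was 7.97%. Without replicate 3 of wild-type water, every call of these lists in a comparison with wild-type water was still made in the same direction. Over their 109 genes tested the calls without and with that library were 56 and 12 for MDP in wild-type cells (35.5% of all genes tested were called without it), and 70 and 16 for genotype in water (46.8%). For the difference in MDP response they were 50 and 12 (26.2%), for GM in wild-type cells 2 and 1, and for the difference in GM response 7 and 1. Of 9 further pump subunits tested, 2 were called with MDP in knockout cells (22.2%): Atp6v0d2 was lower, and Atp6v0e higher with a log2 fold change of 0.13. Atp6v0d2, a subunit that is abundant in osteoclasts and also made by macrophages, had 412.2, 378.7 and 375.7 CPM with MDP, against 617.6, 620.7 and 593.2 CPM with water (log2 fold change -0.65, SE 0.05, edgeR adjusted p 2.732e-14). With GM in knockout cells edgeR called none of the 9, and 1 had an unadjusted p below 0.05. In wild-type cells MDP gave 1 of the 9 higher (Tcirg1, log2 fold change 0.40) and 1 lower (Atp6v0a2, -0.42), both of them alternative large membrane subunits. These calls were 22.2% of the 9, against 8.34% of all genes tested, and GM gave none.

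Among 26 further hydrolases tested, 1 was higher and 6 lower with MDP in knockout cells (26.9%, between 19.2% of all genes tested and 32.4% of those at the members' expression). Acp5, the tartrate-resistant acid phosphatase, had 94.46, 108.6 and 86.58 CPM with MDP, against 51.49, 52.61 and 55.58 CPM with water (log2 fold change 0.86, SE 0.07, edgeR adjusted p 2.276e-11). Lipa, the acid lipase that frees cholesterol from its esters, had 592, 562.4 and 570.7 CPM with MDP, against 852.2, 832 and 842.3 CPM with water (log2 fold change -0.55, SE 0.04, edgeR adjusted p 7.796e-13). Ctse fell by 0.65 and the phospholipase Pla2g15 by 0.45 on the log2 scale. With GM in knockout cells 1 was higher, Lipa with a log2 fold change of 0.21, and 6 were lower (26.9%, against 7.84% and 14.8%). These 6 included Ctsk, a collagen-degrading cathepsin, at 117.4, 115.2 and 108.7 CPM with GM, against 181.1, 173.3 and 193.1 CPM with water (log2 fold change -0.68, SE 0.05, edgeR adjusted p 2.814e-13).

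Acp5 was also the further hydrolase called for GM in wild-type cells, with 124.1, 162.5 and 151.9 CPM, against 60.89, 75.44 and 70.72 CPM with water (log2 fold change 1.08, SE 0.15, edgeR adjusted p 0.03867). In wild-type MDP libraries it had 295, 254.2 and 291.5 CPM (log2 fold change against water 2.02, SE 0.12, edgeR adjusted p 0.001597). Wild type minus knockout, its response differed by 1.07 with GM (SE 0.16, edgeR adjusted p 0.01016) and by 1.16 with MDP (SE 0.15, edgeR adjusted p 0.0008767). With MDP in wild-type cells 2 of the 26 were lower, Dpp7 and Pla2g15, which fell by 0.72 and 0.68 on the log2 scale. Together with Acp5, 11.5% of the 26 were called, against 8.34% of all genes tested.

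Lysosomal membrane proteins beyond the 4 described gave 1 of 17 higher and 7 lower with MDP in knockout cells (47.1%, against 19.2% of all genes tested), and 1 higher and 4 lower with GM (29.4%, against 7.84%). Slc11a1, the metal transporter NRAMP of phagosomes, was the one that rose, with log2 fold changes of 0.34 with MDP and 0.48 with GM. The calcium and sodium channel Tpcn1 fell by 0.67 with MDP, Laptm5 by 0.44 and Cd63 by 0.28 on the log2 scale. In wild-type cells MDP lowered 1 of the 17, Laptm5, by 0.47 (5.88%, against 8.34% of all genes tested).

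The list of mTORC1 and TFEB control has 17 genes, many of which help to hold TFEB in the cytoplasm when amino acids are plentiful. Of these 17, 6 were lower and none higher with MDP in knockout cells (35.3%). The share was 19.2% of all genes tested and 32.4% of those at the members' expression. The largest falls were in Fnip2 by 0.56, Tfec by 0.38 and Rragd by 0.35 on the log2 scale. Fnip2 is a partner of folliculin, Rragd a Rag GTPase and Tfec a relative of TFEB that is found in macrophages. In wild-type cells MDP raised 2 of the 17, Rptor with a log2 fold change of 0.96 and Mtor with 0.52, and lowered Tfec by 1.13. These calls were 17.6% of the list, against 8.34% of all genes tested.

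Cathepsin inhibitors gave 2 of 10 higher and 1 lower with MDP in knockout cells (30%): Stfa3 (log2 fold change 1.07) and cystatin C (Cst3, 0.31) rose and Serpinb6a fell by 0.32. With GM in knockout cells Stfa3 was the one called, with a log2 fold change of 0.49. Of 12 genes of lysosomal enzyme sorting, 2 were higher and 4 lower with MDP in knockout cells (50%), among them the adaptor Gga2 (0.35) and the mannose 6-phosphate receptor M6pr (0.22) above water. Of 18 autophagy genes 4 were higher and 2 lower with MDP (33.3%, near the 32.4% of genes at the members' expression) and 3 higher with GM in knockout cells (16.7%, near 14.8%). Sqstm1, the autophagy receptor p62, had log2 fold changes of 0.29 with MDP and 0.33 with GM.

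With water, knockout cells had 4 of the 26 further hydrolases higher and 1 lower than wild-type cells (19.2%, where 14.6% of all genes tested were called and 17.5% of those at the members' expression). Ctsk had 181.1, 173.3 and 193.1 CPM in knockout, against 26.18, 29.77 and 43.44 CPM in wild type (log2 fold change 2.46, SE 0.20, edgeR adjusted p 0.001681). Pla2g15 was lower by 1.01 on the log2 scale and Ctse had a log2 fold change of 1.70. Both called genes of the 9 further pump subunits (22.2%) were lower, Atp6v0a2 by 0.41 and Atp6v0d2 by 1.06. Atp6v0d2 had 617.6, 620.7 and 593.2 CPM in knockout, against 1078, 1127 and 1608 CPM in wild type. Of the 17 genes of mTORC1 and TFEB control none was called by edgeR, and 2 had an unadjusted p below 0.05. For the MDP response, wild type minus knockout, 4 of these 17 differed with a higher value in wild type and 1 with a lower one, among them Rptor by 0.83 and Tfec by -0.75. That was 29.4% of the list, against 7.97% of all genes tested.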

How the data were processed

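Poly(A)-selected, directional libraries were sequenced. Per the submitters' processing notes, reads were aligned with HISAT2 2.0.5 to mouse GRCm39 and counted with featureCounts 1.5.0-p3. The strand setting and annotation release are not given in the sources used here. The authors deposited raw read counts per gene for 18 libraries, which were used for all tests. The authors also deposited FPKM values, used only to rank levels between genes. Tests used edgeR 4.0.16 (R 4.3.3). A minimum count of 10 in filterByExpr kept 15450 genes, which held 99.92% or more of each library, and TMM factors ran from 0.8772 to 1.057. Each of 9 comparisons was fitted by quasi-likelihood on the libraries compared (6, or 12 for differences between genotypes), with 2-sided F tests, Benjamini-Hochberg adjustment over all genes and a threshold of 0.05. Means carry SDs of 3 libraries, and log2 fold changes carry standard errors (SE). Alternatives were 1 fit of all 18 libraries, DESeq2 1.42.0, limma-voom (limma 3.58.1), RLE size factors, no filter, a replicate block and leaving out each library. For GM and MDP in wild type and MDP in knockout, the fit was also run on simulated counts, and its outcome is not given here. In each comparison, the 4 called genes with the largest rise and the 4 with the largest fall were given in full, and up to 3 per direction from each further list could be named. The 43 genes and all lists were chosen with earlier results of these data known.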

Additional observations from a re-analysis of the deposited data

Results flagged for a closer look

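The MDP response of 3 proteases differed between the genotypes by a test of the difference itself. Wild type minus knockout, the log2 fold change with MDP differed by 0.968 for Lgmn (edgeR adjusted p 0.0006744), by 0.99 for Ctsl (edgeR adjusted p 0.01243) and by 0.524 for Ctsh (edgeR adjusted p 0.008437). MDP libraries of knockout cells were below every knockout water library for Lgmn and Ctsl, and those of wild-type cells were above every wild-type water library for all 3 genes. Over the 18 other settings the differences ran from 0.894 to 1.042 for Lgmn, from 0.849 to 1.225 for Ctsl and from 0.483 to 0.561 for Ctsh. In a group of 3 libraries, single libraries were not tested for standing apart.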

How the results depend on the processing

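With 1 fit of all 18 libraries, calls among the 43 genes numbered 0 for GM in knockout, 2 for MDP in knockout and 1 for GM against MDP in knockout, and 1, 10 and 6 in wild type, with 15 for knockout against wild type in water. DESeq2 gave 6 for MDP in wild type, 6 for GM against MDP in wild type, 10 for knockout against wild type and 5 for the difference in MDP response. limma-voom gave 5 for GM and 15 for MDP in knockout, 9 for MDP and 7 for GM against MDP in wild type, and 10 for knockout against wild type. Leaving out both wild-type libraries numbered 3, chosen after seeing the data, gave 3 for the difference in GM response. RLE factors and no filter kept each count within 1.5 times.

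Leaving out single libraries gave 5 to 8 calls for GM in knockout, 19 to 26 for MDP in knockout, 12 to 16 for GM against MDP in knockout, 0 to 0 for GM in wild type, 0 to 22 for MDP in wild type, 0 to 10 for GM against MDP in wild type, 1 to 29 for knockout against wild type, 0 to 0 for the difference in GM response and 3 to 19 for that in MDP response.

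Between wild-type GM and wild-type water, same-numbered libraries correlated at -0.185, 0.484 and 0.472 for replicates 1, 2 and 3. Whether these libraries were paired is therefore not settled. In all other pairs of groups the correlation was no more than 0.107, which gave no sign of pairing. A replicate block gave 8, 23 and 15 calls in knockout (GM, MDP, GM against MDP) and 0, 0 and 3 in wild type. It gave 2 for knockout against wild type, and 0 and 3 for the differences in GM and MDP response. For GM in wild type, 4 of the lysosomal genes had an unadjusted p below 0.05 with the block, against 0 without it. Over all genes tested, GM in wild type then gave 166 calls, against 94 without the block.

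None of the 32 results for single genes reversed in 402 values under other settings, 342 kept their call and 60 lost it. The 7 that kept it in every setting were Atp6v1b2 and Atp6v0a1 with MDP in knockout, Atp6v1b2 for GM against MDP in knockout and for genotype in water, and Lgmn, Ctsl and Ctsh for the difference in MDP response. The cause of these shifts was not tested. In wild-type GM and water, the spread between libraries limits what can be seen.

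Over all genes, the fit of 18 libraries called 3 rather than 1212 for GM in knockout, 427 rather than 2963 for MDP in knockout and 242 rather than 2532 for GM against MDP in knockout. In wild type it called 729 rather than 94 for GM, 3810 rather than 1288 for MDP and 3001 rather than 1544 for GM against MDP. It called 5110 rather than 2258 for knockout against wild type and 287 rather than 145 for the difference in GM response. DESeq2 called 356, 2457 and 2618 in wild type (GM, MDP, GM against MDP), 3593 for knockout against wild type, and 317 and 1962 for the differences in GM and MDP response. limma-voom called 569 for GM in knockout, and 173 for GM and 2626 for GM against MDP in wild type. The replicate block called 166 for GM and 387 for MDP in wild type and 855 for knockout against wild type.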
